A study of Homo sapiens with 6 samples.

Results

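The transcript levels of 10 transcription factors that direct erythroid and megakaryocyte development were described in HEL cells, a human erythroleukemia line. They were GATA1, GATA2, TAL1, LMO2, ZFPM1, KLF1, FLI1, RUNX1, NFE2 and GFI1B, and each was found by its symbol once among the 31999 genes of the deposited table. Poly(A) RNA was sequenced from HEL cells carrying a lentiviral small hairpin RNA against the immune receptor gene TMIGD2 (shTMIGD2, 3 libraries, labelled as biological replicates) or a control hairpin (shCtrl, 3 libraries). All 6 libraries come from the same line, grown in RPMI with serum, and the labels do not say which of the study's hairpins against TMIGD2 was used. Levels are in log2 CPM, read counts scaled to the size of the library, and how that size was normalized is not given. The table gives each gene 1 mean level over the libraries, and no value per library or per group. The levels below are therefore the authors' means over shCtrl and shTMIGD2 together, with no error, and the depth behind them is unknown. The remaining columns are the authors' own comparison of the groups, which was not used, so no difference between shTMIGD2 and shCtrl is reported for any gene. The targeted gene, TMIGD2, had a mean of 4.08 log2 CPM, and a mean over both groups cannot show its knockdown.

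The 10 factors belong to a small network that decides between red cell and platelet fates. GATA2 acts in progenitors and is replaced on many sites by GATA1 as erythroid and megakaryocyte cells mature. Both bind the sequence GATA, often beside an E-box held by TAL1, and LMO2 and LDB1 bridge the complex. KLF1 drives red cell genes and FLI1 drives megakaryocyte genes, and each restrains the other.

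GATA letters occur in the start regions of some of the factors' own genes, and the following stretches are shown because these proteins read that sequence. The letters AGATAA were searched together with AGATAG, the variant TGATAA starting with T, and TGATAG, on both strands of the RefSeq windows of 300 bases around each gene start (250 before, 50 after). Such windows were matched for 7 of the 10 genes, some with several starts, and 4 of their 10 windows held a match, in KLF1, TAL1 and GFI1B. The windows of GATA1, GATA2, ZFPM1 and RUNX1 held no match. LMO2, FLI1 and NFE2 had no window and were not searched. Of all 35116 windows, 25.0% held a match, so 4 of 10 does not by itself set these genes apart. The matches that begin before the start are printed 5′ to 3′ on the strand of the gene, with distances from the RefSeq start of that window (for TAL1 another start than that of the transcript used for levels) and with the matched letters, or their reverse complement, in capitals.
KLF1, 66 bases before the start, chr19:12887250-12887279, minus strand, GRCh38.p14: ccttgctttgccTTATCAgaggctgcagcc
KLF1, 13 bases before the start, chr19:12887197-12887226, minus strand, GRCh38.p14: ccctcgaaggggCTATCAcagcctcagagt
TAL1, 35 bases before a start, chr1:47232353-47232382, minus strand, GRCh38.p14: cgcggcagtgccTTATCTctgcggcgcaca
GFI1B, 116 bases before the transcript start, chr9:132978566-132978595, plus strand, GRCh38.p14: cctggaaagtttTGATAAgcaaatacggct
The GFI1B start is not the only one of that gene, and a match just after another GFI1B start is not printed. These are matches of letters. Binding was not measured in these data.

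All 10 factors were abundant by CPM. Their mean levels ran from 6.69 log2 CPM (ZFPM1) to 10.14 log2 CPM (GATA2), with a median of 8.57, where the median of all 31999 genes was -0.97. Of the 10, 9 were among the 1000 genes with the highest CPM. Because long transcripts collect more reads, genes were compared on CPM per kilobase of their MANE Select transcript, written here as log2 CPM per kb. On this scale the 10 factors had a median of 6.93 log2 CPM per kb. Of all 31999 genes, 14000 (43.8%) reached 1 CPM. The median of the 12731 genes that reached 1 CPM and had a transcript length was 3.10, and all 10 factors were above it. ZFPM1 was above 70.2% of those genes per kilobase, and RUNX1, the next lowest factor, above 93.4%. Together the 10 genes took 0.412% of the summed CPM of the table.

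Per kilobase of transcript the order was GATA2 (8.38), NFE2 (8.23), GFI1B (7.68), GATA1 (7.42), LMO2 (6.93), KLF1 (6.93), FLI1 (6.67), TAL1 (6.51), RUNX1 (6.45) and ZFPM1 (4.25), in log2 CPM per kb. The highest and lowest differed 17.5-fold, and ZFPM1 stood 2.20 on the log2 scale below RUNX1, the next. The largest gap between other neighbours was 0.55. Without a spread between libraries it cannot be said which neighbours differ.

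**Figure D1:**
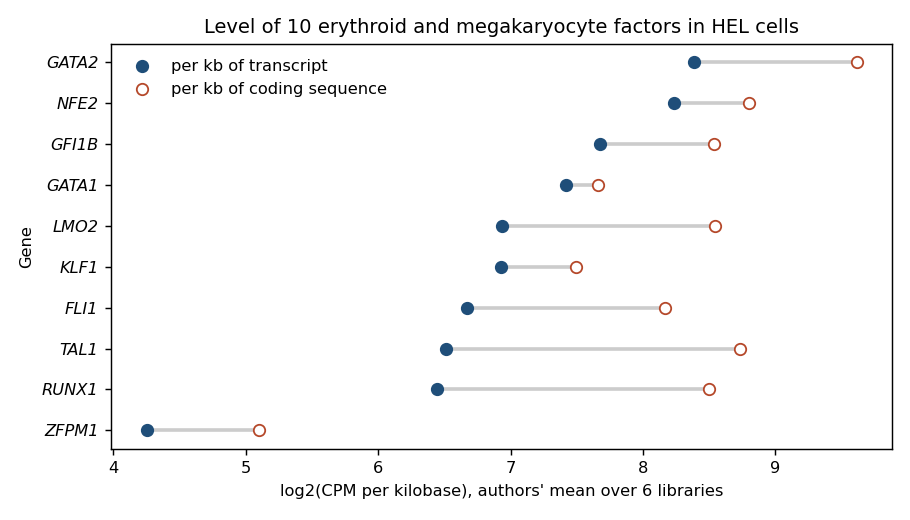
Level of each of the 10 factors as log2 CPM per kilobase of transcript (filled) and per kilobase of coding sequence (open), from the authors' mean over 6 libraries, with no error available. GATA2 is highest and ZFPM1 lowest on both scales, while TAL1 and RUNX1 move up most when only coding sequence is counted.

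GATA2 and GATA1 were the most abundant GATA genes. GATA2 (chromosome 3, 128479427 to 128493201, GRCh38) had a mean of 10.14 log2 CPM and ranked 78th of all genes by CPM. GATA1 (chromosome X, 48786540 to 48794311), the factor required for maturation of both lineages, had 7.97 log2 CPM. Per kilobase of transcript, GATA2 was 1.95-fold above GATA1, and per kilobase of coding sequence 3.88-fold. The pair held 66.0% and 33.8% of the summed CPM per kb of the 6 GATA genes, and 81.7% and 18.1% of their summed CPM. GATA3, the T cell factor, and GATA4, GATA5 and GATA6, factors of heart and gut, each held under 1% of it, at -2.52, -3.04, -0.43 and -4.22 log2 CPM per kb. Of these 4, GATA5 reached 1 CPM, at 0.96 log2 CPM. ZFPM1 (FOG1; chromosome 16, 88453280 to 88537031), the zinc finger cofactor through which GATA1 acts on many targets, had 6.69 log2 CPM. On the scale per kilobase of transcript GATA1 was 8.99-fold above it, and per kilobase of coding sequence 5.90-fold. Its relative ZFPM2 had -3.30 log2 CPM per kb, so ZFPM1 made up 99.5% of the FOG pair.

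Transcripts of the TAL1 complex and of its listed partners were all detected at 1 CPM or more, while the proteins were not measured. Of all 31999 genes, 43.8% reached that level. TAL1 (chromosome 1, 47216290 to 47232225), the bHLH factor at the centre of the complex, had 8.72 log2 CPM and 6.51 log2 CPM per kb. LMO2 (chromosome 11, 33858576 to 33892076), the LIM-only bridge, had 7.99 log2 CPM and 6.93 log2 CPM per kb. There were 7 listed partners. LDB1, which joins LMO2 to other complexes, had 7.03 log2 CPM per kb. The listed E-proteins that pair with TAL1 were lower, with 4.88 for TCF3 and 4.57 for TCF12 in log2 CPM per kb, and no other E-protein was listed. CBFA2T3 (ETO2), a corepressor of the complex, had 6.43, and of the LDB1-binding SSBP genes SSBP3 had 6.46, SSBP4 6.21 and SSBP2 0.94 log2 CPM per kb.

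TAL1 was not the only abundant member of its class. LYL1, a close relative that can bind the same partners, had 7.58 log2 CPM per kb and was 2.10-fold above TAL1 per kilobase of transcript. TAL1 held 32.2% of the summed CPM per kb of the class and 59.8% of the summed CPM. Per kilobase of coding sequence the order turned, with TAL1 1.26-fold above LYL1. TAL2 had -1.86 log2 CPM per kb. Among LIM-only genes LMO2 held 88.7% of the summed CPM per kb. It was 8.65-fold above LMO4 per kilobase of transcript and 2.62-fold per kilobase of coding sequence. LMO4 followed at 3.82 log2 CPM per kb, and LMO1 and LMO3 had -4.14 and 0.40. LMO1, at -3.76 log2 CPM, lay at the lowest level of any gene, so its value per kb is set by that floor and its length.

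KLF1 and FLI1, the opposed factors of the red cell and platelet fates, were both abundant. KLF1 (chromosome 19, 12884422 to 12887201) had 7.62 log2 CPM, and FLI1 (chromosome 11, 128686535 to 128813267) had 8.61 log2 CPM. Per kilobase of transcript KLF1 was 1.19-fold above FLI1, and per kilobase of coding sequence FLI1 was 1.59-fold above KLF1. Which of them is higher therefore depends on the length used. These are bulk means, in which fewer cells expressing a gene and less RNA per cell cannot be told apart, so it is not known whether the same cells held both.

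KLF1 was the highest of the 17 Kruppel-like factors on either length, with 62.9% of their summed CPM per kb and 37.2% of their summed CPM. The next were KLF16 (4.18), KLF13 (3.98) and KLF3 (3.94, a repressor that is itself a KLF1 target) in log2 CPM per kb of transcript. KLF2 and KLF4, factors of endothelium and stem cells, had -2.98 and -4.80 log2 CPM per kb. FLI1 shared its family with several abundant genes. Of the 26 ETS genes measured, 21 reached 1 CPM, where 43.8% of all genes did, and FLI1 held 18.0% of the summed CPM per kb. SPI1 (PU.1), the myeloid and B cell factor known to oppose GATA1, had 6.40 log2 CPM per kb, ETS1 6.27 and ETS2 5.73, and ELF1 lay between these last, with 11.3% of the family. FLI1 exceeded SPI1 1.21-fold and ETS1 1.32-fold per kilobase of transcript, and 2.01-fold and 1.06-fold per kilobase of coding sequence. By CPM without length ETS1 was the higher, with 19.3% of the family against 19.0% for FLI1. ERG, the closest relative of FLI1 in blood stem cells, had 0.54 log2 CPM per kb, and FLI1 was 69.9-fold above it.

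RUNX1, NFE2 and GFI1B each dominated a small family. RUNX1 (chromosome 21, 34787801 to 36004667), needed for blood stem cell formation and megakaryocyte maturation, had 9.03 log2 CPM and 6.45 log2 CPM per kb. It held 96.9% of the summed CPM per kb of the RUNX genes and was 31.7-fold above RUNX3, while RUNX2, the bone factor, had -5.09 log2 CPM per kb. CBFB, the partner that stabilises RUNX proteins on DNA, had 5.67 log2 CPM per kb.

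NFE2 (chromosome 12, 54292111 to 54301015), required for platelet release and active at globin enhancers, had 8.96 log2 CPM and was the second highest of the 10 factors per kilobase of transcript. It held 78.8% of the summed CPM per kb of the NFE2 and BACH genes. It was 10.6-fold above BACH1 per kilobase of transcript and 6.16-fold per kilobase of coding sequence, with BACH1, the heme-sensing repressor, at 4.83 log2 CPM per kb and NFE2L1 at 4.81. Its obligate small MAF partners were lower, with MAFG at 4.06, MAFK at 2.53 and MAFF at 2.31 log2 CPM per kb. NFE2 was 18.0-fold above MAFG per kilobase of transcript and 2.56-fold per kilobase of coding sequence.

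GFI1B (chromosome 9, 132944000 to 132991687), a repressor that both lineages need, had 8.52 log2 CPM and 7.68 log2 CPM per kb. GFI1, its counterpart in granulocytes and lymphocytes, had 0.97 log2 CPM per kb, and GFI1B was 105-fold above it per kilobase of transcript and 52.8-fold per kilobase of coding sequence. Transcripts of the repressor complex that GFI1B recruits were detected. KDM1A (LSD1), the demethylase, had 6.80 log2 CPM per kb, and HDAC1, HDAC2 and RCOR1 (CoREST) had 6.86, 5.12 and 4.33.

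**Figure D2:**
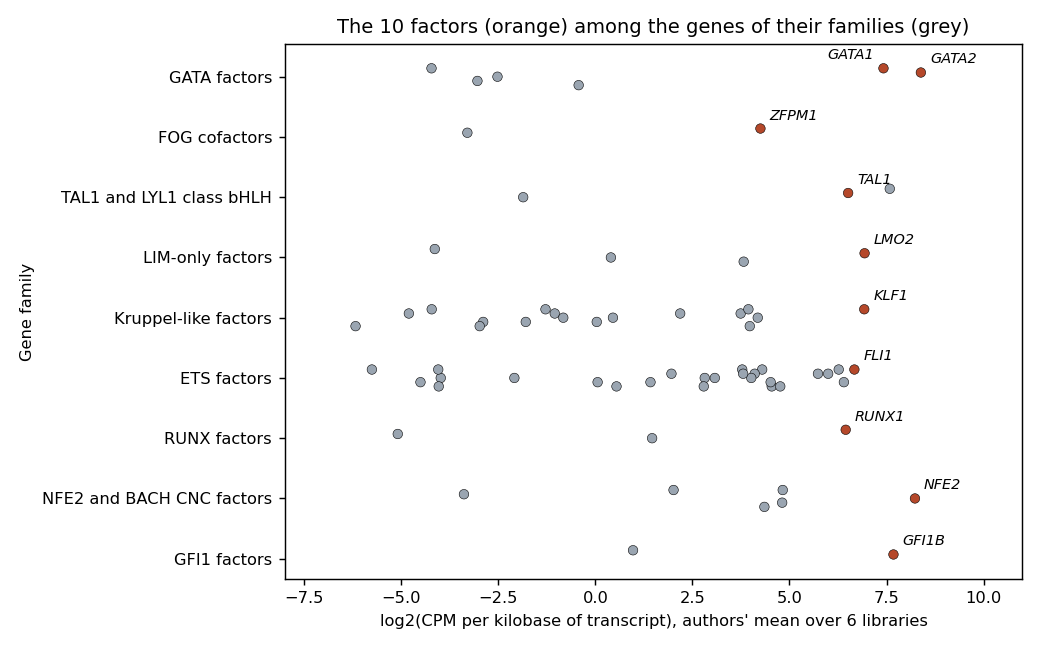
Each point is 1 gene of the family named on the left, as log2 CPM per kilobase of transcript from the authors' mean over 6 libraries. On this scale the 10 factors (orange, named) are the highest of their families, apart from GATA1, which lies below GATA2, and TAL1, which lies below LYL1.

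The labelled cell type was checked on marker genes. All 9 listed erythroid genes reached 1 CPM, from EPOR at 4.25 to HBA1 at 10.59 log2 CPM per kb. HBA1 and HBA2, and likewise HBG1 and HBG2, are near-identical, so the split of reads within each pair is uncertain. All 6 megakaryocyte genes also reached 1 CPM, from GP1BA at 4.53 to ITGA2B (CD41) at 8.74 log2 CPM per kb. Of the 10 factors of other blood lineages measured, 3 reached 1 CPM: SPI1, CEBPB at 3.76 and CEBPA at 0.95 log2 CPM per kb. Of all 31999 genes, 43.8% reached 1 CPM, so the count of 3 does not by itself set these factors apart. PAX5 and EBF1, the B cell factors, had -5.37 and -6.01, and TBX21, TCF7 and BCL11B, of T cells, had -4.08, -3.12 and -4.74 log2 CPM per kb. The lowest level of any gene was -3.76 log2 CPM. EBF1, at -3.57 log2 CPM, lay close to this floor, so its value per kb depends largely on its length.

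The reported markers of other cells had the following levels. Of the lymphocyte genes, CD79A had 2.19 log2 CPM per kb. Of the monocyte genes, LYZ had 3.83 log2 CPM per kb, while CD14, FCN1 and S100A8 were under 1 CPM. FCN1 and S100A8 both lay at the floor of -3.76 log2 CPM. Their values of -6.69 and -2.47 log2 CPM per kb differ only because of their lengths. Of the fibroblast and epithelial genes, KRT8 had 1.20 log2 CPM per kb and COL1A1, COL1A2 and EPCAM were under 1 CPM.

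**Figure D3:**
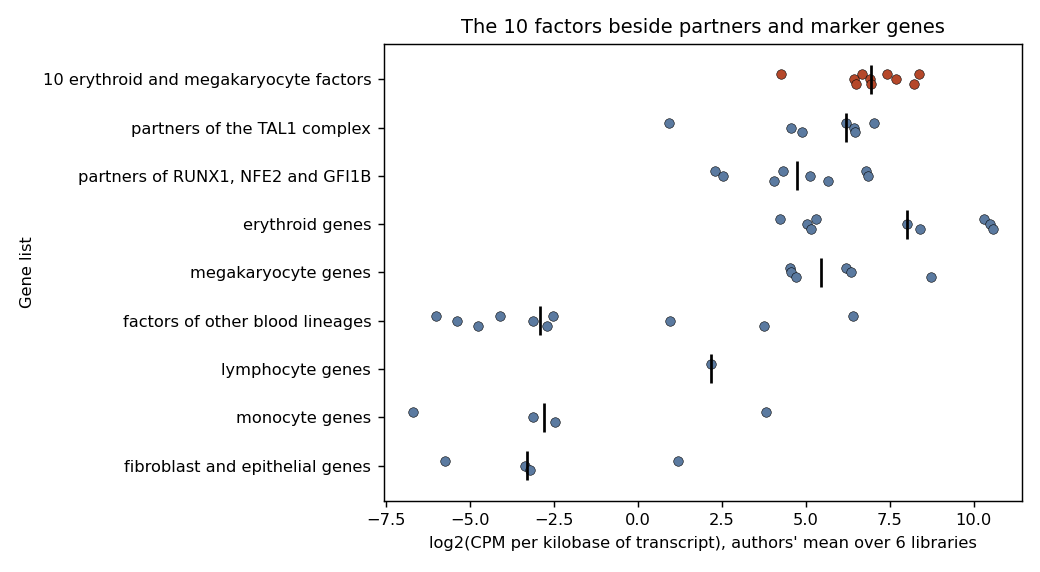
Each point is 1 gene as log2 CPM per kilobase of transcript, from the authors' mean over 6 libraries, and the bars mark the median of each list. Points of genes near the floor of -3.76 log2 CPM, such as FCN1 and S100A8, are placed largely by transcript length. The 10 factors have a median of 6.93, the erythroid genes 8.02, the megakaryocyte genes 5.46 and the factors of other blood lineages -2.91, with SPI1 the rightmost of the last.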

How the data were processed

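RNA of 3 shCtrl and 3 shTMIGD2 HEL libraries, grouped by their titles, was sequenced by the authors. The study's methods name STAR 2.6.1b, hg38 and HTSeq 0.6.1 on a refSeq annotation. The authors used DESeq2 by those methods, keeping genes that averaged 1 read or more in either condition. The authors deposited a table that differs in having the column names of edgeR, whose mean log2 CPM, taken as edgeR defines that name, is the only column used here. The normalization, prior count and filter of that edgeR run are not given in the sources used here. Its other columns are the authors' log2 fold change, F statistic, p-value and FDR for shTMIGD2 against shCtrl. They are the study's own results and were not used. The table holds no library's counts, so the edgeR test set out in the plan was not run.

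CPM was back-transformed from log2 CPM. A level of 1 CPM (log2 CPM of 0) was the minimum for a gene to count as reached. Positions and lengths come from GENCODE 44 on GRCh38, taking the MANE Select or, where there is none, the Ensembl canonical transcript. Lengths were matched by symbol for 22987 genes (71.8%), too few for ranks per kilobase over all genes, and for 90.9% of those at 1 CPM or more. Families, partners and markers were listed from general knowledge. The factors and lists were chosen with earlier results of these data known. Listed genes without a value (ELF5, IRF8, CD3E, CD3D, MS4A1, S100A9) were not analysed here, and 1 marker gene is not reported. Promoter windows are from RefSeq (GRCh38.p14). The code for ranks and shares was checked on simulated levels of known order. No level was tested against another. Python 3.11.15 and pandas 2.3.3 were used.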

Additional observations from a re-analysis of the deposited data

How the results depend on the processing

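All 10 factors were above the median of all genes by CPM, above that of the genes at 1 CPM or more, and above the latter per kilobase, an alternative chosen after seeing the data. The comparison per kilobase with all genes was void, since 71.8% had a length. Per kilobase of coding length the levels in log2 CPM per kb were 7.66 for GATA1, 9.62 for GATA2, 8.74 for TAL1, 8.55 for LMO2, 5.10 for ZFPM1, 7.50 for KLF1, 8.17 for FLI1, 8.50 for RUNX1, 8.80 for NFE2 and 8.54 for GFI1B. Of the 24 pairs of genes compared, 19 kept their direction. The 5 that turned had log2 differences per coding kilobase of 0.33 (TAL1 minus LYL1), -0.19 (LMO2 minus TAL1), -0.18 (LDB1 minus LMO2), -0.37 (LDB1 minus TAL1) and -0.67 (KLF1 minus FLI1). By CPM without length, the shares of the family were 18.1% for GATA1, 81.7% for GATA2, 99.5% for ZFPM1, 59.8% for TAL1, 77.2% for LMO2, 37.2% for KLF1, 19.0% for FLI1, 97.8% for RUNX1, 57.9% for NFE2 and 97.6% for GFI1B. These moves follow from the lengths used.

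No paired analysis was possible because the table has no values per library. For the same reason the edgeR and DESeq2 tests, the unfiltered fit and leaving out each library were not run. The isoform HEL cells use was not measured, and values under 1 CPM rest on an unknown number of reads.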
